A study of Mus musculus with 67 samples.

Results

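Genes of Wnt signalling were examined in cultured vascular smooth muscle cells (VSMCs), which give the wall of arteries its contractile tone, sequenced 1 cell at a time. The 46 genes were those of 39179 gene rows whose symbols name a Wnt ligand, a Frizzled receptor, an Lrp5/6 or Ror coreceptor, a secreted antagonist of the Sfrp, Dkk, Frzb or Wif1 type, β-catenin or an Axin. They comprised 19 ligands, 10 Frizzleds, 4 Lrp5/6 and Ror genes, 10 antagonists, and 3 genes for β-catenin and the Axins. The choice used gene symbols and no measured value. The study addressed the variety of states among VSMCs in culture. Its design compares 45 cells at passage 2 with 22 cells at passage 1, each cell being 1 library.

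All cells were labelled as VSMCs of the descending aorta of male C57Bl6 mice aged 3 to 4 months, and the labels name no transgene and no drug. They were grown in DMEM with 10% fetal bovine serum, penicillin and streptomycin. Passage 1 cells stood for 5 days in culture, and passage 2 cells were obtained by trypsin treatment and replating of passage 1 cells. Because no label ties a cell to an animal or a dish, the cells of a passage were taken as 1 sample, and no test was made between passages. SDs give the spread between cells. The libraries of the passages also carry different prefixes in their names, so passage and library set cannot be told apart.

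Values are counts normalized by the authors to 1 size factor per cell. Reads recovered from them numbered 548419 to 1509589 per cell at passage 2 and 817021 to 1561129 at passage 1, and a median of 7257 and 8477.5 genes had a read at passage 2 and passage 1. Passage 1 cells were thus the more deeply read, and shares of cells are given mainly at a value of at least 10. Of the smooth muscle markers, 10 of 10 had a read at passage 2 and 9 of 10 at passage 1, where Des was at 0. All 45 passage 2 cells and 19 of 22 passage 1 cells held at least 3 smooth muscle markers at a value of 10, so 3 passage 1 cells did not meet their label by this count. At least 3 of 10 endothelial markers were held at that value by 2 of 45 passage 2 cells and 5 of 22 passage 1 cells, termed endothelial marker cells. All of these also met the smooth muscle count, so the term does not set them apart as cells without smooth muscle markers. Mki67 or Top2a, genes of dividing cells, reached 10 in 10 of 45 passage 2 cells and 16 of 22 passage 1 cells, termed cycling marker cells.

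Wnts are secreted lipid-modified proteins that bind Frizzled receptors. With Lrp5 or Lrp6 as coreceptor, binding halts the breakdown of β-catenin, which then acts with TCF and LEF factors on target genes; with Ror receptors, Wnt5a-type ligands act without β-catenin. Sfrp proteins, Frzb and Wif1 bind Wnts outside the cell, whereas several Dkk proteins bind Lrp5 and Lrp6. In arteries, Wnt signalling has been linked to VSMC growth, migration and matrix production.

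Promoter sequences are shown for Fzd5 and Sfrp2, which had the highest ratios of passage 2 to passage 1, and for Dkk2, which had the lowest. Each is the 250 bases before the RefSeq gene start in GRCm38.p6, 5′ to 3′ on the gene's strand, with CG dinucleotides in capitals. Fzd5 lies on the minus strand (chr1:64737751-64738000), Sfrp2 on the plus strand (chr3:83766071-83766320) and Dkk2 on the plus strand (chr3:132085042-132085291).
Fzd5: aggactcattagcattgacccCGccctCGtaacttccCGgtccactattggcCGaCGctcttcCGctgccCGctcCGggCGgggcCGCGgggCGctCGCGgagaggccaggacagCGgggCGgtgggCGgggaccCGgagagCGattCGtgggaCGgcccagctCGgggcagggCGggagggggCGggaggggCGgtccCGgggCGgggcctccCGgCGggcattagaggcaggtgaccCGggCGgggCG
Sfrp2: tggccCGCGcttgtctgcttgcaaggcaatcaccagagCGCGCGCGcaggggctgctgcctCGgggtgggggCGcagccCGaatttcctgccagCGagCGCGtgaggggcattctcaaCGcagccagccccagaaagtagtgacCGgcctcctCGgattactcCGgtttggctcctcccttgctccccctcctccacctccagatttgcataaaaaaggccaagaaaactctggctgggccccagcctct
Dkk2: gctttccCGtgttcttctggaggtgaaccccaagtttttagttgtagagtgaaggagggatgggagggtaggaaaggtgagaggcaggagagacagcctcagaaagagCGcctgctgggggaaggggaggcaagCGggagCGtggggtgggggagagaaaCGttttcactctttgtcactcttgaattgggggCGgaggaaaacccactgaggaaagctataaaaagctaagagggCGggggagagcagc

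The 3 sequences differed in base composition. That of Fzd5 was 76.4% G and C with 32 CG dinucleotides, that of Sfrp2 63.6% with 16, and that of Dkk2 55.6% with 7. Of the 46 genes, 31 matched an entry in the promoter table, with 35 promoters among them. The median G and C content of the 35 was 69.2%, against 52.4% over all 32851 promoters of the table, and the median number of CG dinucleotides was 22, against 6. The TCF/LEF motif CTTTGAT, the only motif sought, was looked for on both strands. It was present in 2 of the 35 (5.71%), 1 start of Wnt5b and 1 of Wnt11, and in 3.21% of all promoters. None of the 3 printed sequences held it.

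Expression of the 46 genes was uneven. In all 67 cells, 15 of them had no read: the ligands Wnt1, Wnt3, Wnt3a, Wnt6, Wnt7a, Wnt7b, Wnt8a, Wnt8b, Wnt9b and Wnt10a, the receptors Fzd9 and Fzd10, the antagonists Sfrp5 and Dkk4, and Axin2, a scaffold of β-catenin breakdown whose own transcription is a common readout of β-catenin activity. Taken as 3 counts of the total, the limit that 0 of 67 cells allows is a share of up to 4.48% of cells with a read. Of the 31 genes with a read, 17 passed a filter, which in either passage asked for a mean of 10 or more and for reads in 25% or more of the cells. These were 1 ligand, 7 Frizzleds, Lrp6, Ror1, 6 antagonists and β-catenin.

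The log2 ratio given here is log2(mean + 1) over passage 2 cells minus that over passage 1 cells, so the added 1 shrinks the ratio of a gene with a low mean. Of the 17 genes, 5 were at least 2-fold higher at passage 2 (Fzd5, Sfrp2, Fzd8, Ror1 and Sfrp4), beside 14.4% of all 8682 genes that passed. Another 5 were at least 2-fold lower (Dkk2, Fzd4, Wnt5a, Frzb and Dkk3), beside 19.4% of all genes, and in either direction the 10 stood beside 33.9% of all genes. The median log2 ratio of the 17 was -0.47 and that of all 8682 genes was -0.11. The ranges over cells of the passages overlapped for all 17 genes.

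**Figure D1:**
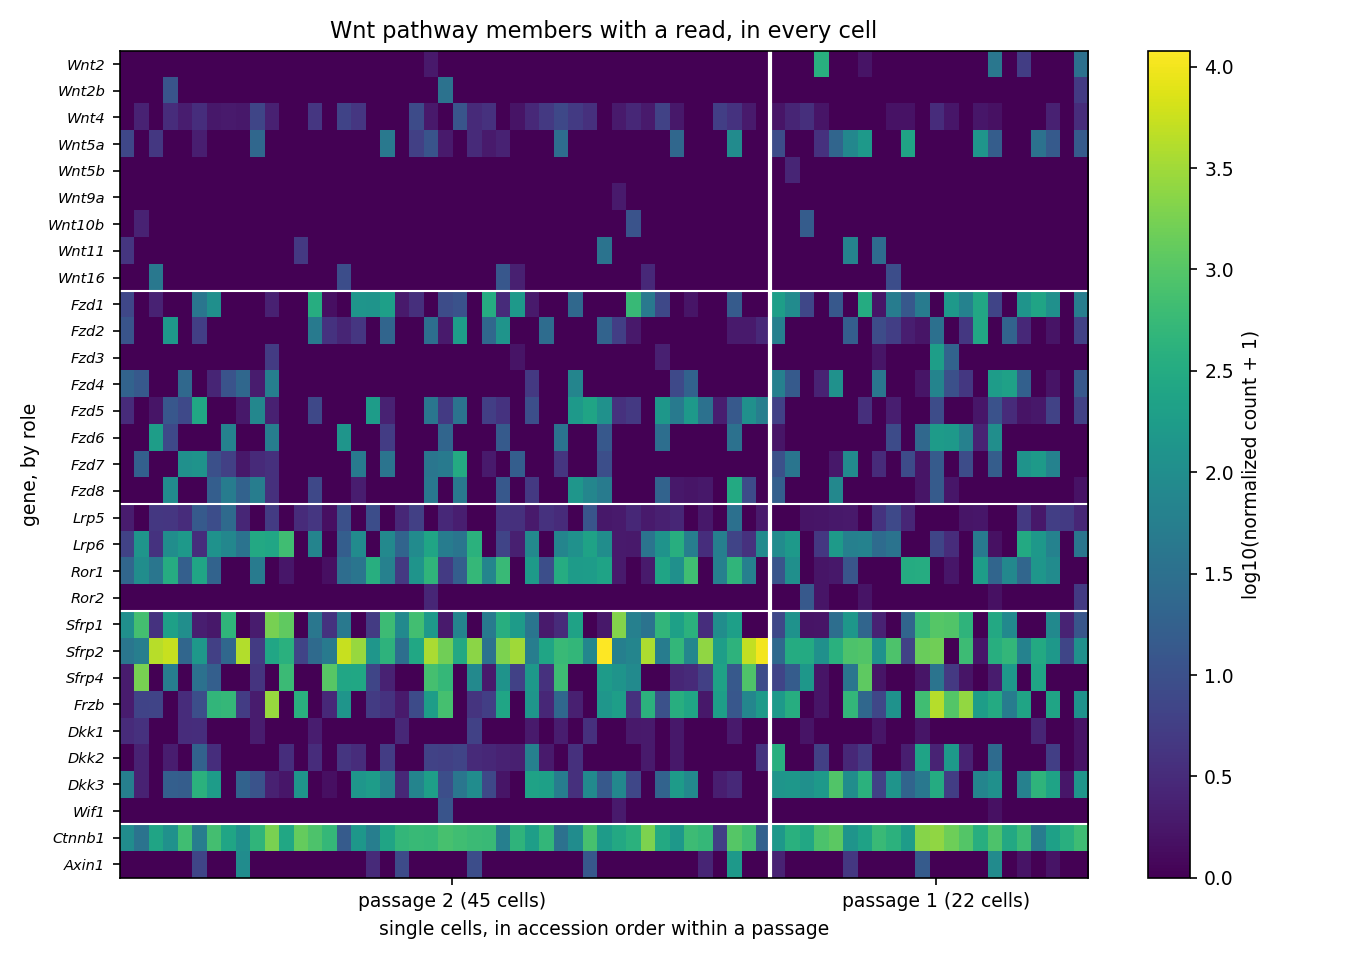
Normalized counts of the 31 genes with a read in at least 1 cell, as log10(value + 1) by colour. The 45 passage 2 cells are on the left and the 22 passage 1 cells on the right. Ctnnb1 and Sfrp2 are present in nearly every cell of both passages, whereas most receptors are at or near 0 in many cells.

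**Figure D2:**
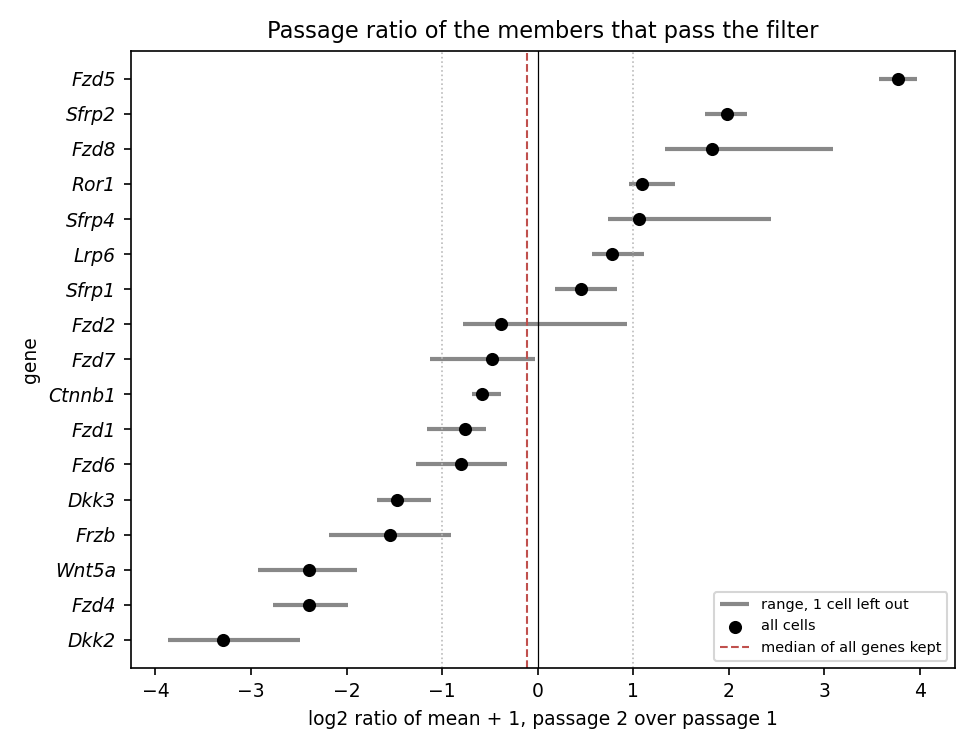
Log2 ratio of means, passage 2 over passage 1, for each of the 17 genes, with its range when each cell in turn was left out. Fzd5 has the highest ratio at 3.78 and Dkk2 the lowest at -3.29, and the range for Fzd2 crosses 0.

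Among the ligands, Wnt5a alone passed the filter. Wnt5a, the prototype of Wnts that act without β-catenin (ENSMUSG00000021994, chromosome 14, 28504750 to 28527448, plus strand, GRCm38), ranged from 0 through a median of 0 to 91.1 in passage 2 cells, and from 0 through 1.43 to 237 in passage 1 cells. It averaged 5.32 ± 15.8 at passage 2 and 32.2 ± 63.1 at passage 1 (SD, n = 45 and 22 cells), a log2 ratio of -2.39. Cells at 10 or above made up 13.3% at passage 2 (6 of 45, exact Clopper-Pearson 95% interval 5.05 to 26.8), against 40.9% at passage 1 (9 of 22, interval 20.7 to 63.6). Most cells of both passages were thus low, and the highest values were held by passage 1 cells. Intervals cover counting error only, and reads without molecular identifiers are not independent molecules. Exons of Wnt5a overlapped an antisense gene over 4.58% of their length, and the labels do not say whether strand was used in counting.

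Wnt2, a ligand linked to β-catenin signalling, had 1 read in 1 passage 2 cell and 650 reads in 5 passage 1 cells. It missed the filter because 5 of 22 cells fall short of 25%. The ratio of its summed reads, scaled to the total reads of each passage, was 0.000982, passage 2 over passage 1, with a 95% counting interval of 2.48e-05 to 0.00549. Passage 1 cell 4 alone held 366 normalized counts, 82.8% of the sum over passage 1 cells, and 3 passage 1 cells reached 10. The difference therefore rests on few cells.

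Wnt4 had a read in 31 of 45 passage 2 cells and 12 of 22 passage 1 cells, but its highest values were 10.7 in a passage 2 cell and 2.60 in a passage 1 cell. For scale, Cd3d, a lymphocyte gene not sought in these cells, had a read in 33.3% of passage 2 cells. The highest single cells of the other ligands stood at 35.3 (passage 2) and 66.4 (passage 1) for Wnt11, 42.7 and 8.15 for Wnt16, 32.9 and 3.97 for Wnt2b, and 10.2 and 14.3 for Wnt10b. Wnt9a had 1 read, at passage 2, and Wnt5b 2 reads, at passage 1. At least 1 ligand reached 10 in 13 of 45 passage 2 cells and 12 of 22 passage 1 cells, and at least 2 ligands did so in 0 and 3 cells.

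Frizzleds, the 7-pass membrane receptors for Wnts, differed from each other in direction. Of the 7 that passed, 2 were higher at passage 2, both by at least 2-fold, and 5 were lower, 1 of them by at least 2-fold. Over all genes that passed, 45.3% were higher by any amount and 54.7% lower.

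Fzd5 (ENSMUSG00000045005, chromosome 1, 64730558 to 64737751, minus strand) ranged from 0 through a median of 2.90 to 264 in passage 2 cells, and from 0 through 0.32 to 9.60 in passage 1 cells. Its value was at least 10 in 16 of 45 passage 2 cells (35.6%, interval 21.9 to 51.2), against 0 of 22 passage 1 cells (exact interval 0 to 15.4%, with 3 counts of the total at 13.6%). So the passage 2 cells with high Fzd5 stood above every passage 1 cell, while the remaining passage 2 cells lay within the passage 1 range. Its mean was 38.2 ± 68.2 at passage 2 and 1.86 ± 2.85 at passage 1, a log2 ratio of 3.78. Summed reads, scaled to total reads, gave a ratio of 16.5 (95% counting interval 12.8 to 21.5). The CG-rich promoter printed above for Fzd5 is that of the receptor with the highest ratio of the 17 genes.

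Fzd8 was the other receptor with a higher mean at passage 2. It ranged from 0 through a median of 0 to 299 in passage 2 cells and from 0 through 0 to 79.6 in passage 1 cells, and reached 10 in 13 of 45 and 3 of 22 cells. The means were 20.6 ± 51.3 at passage 2 and 5.07 ± 17.2 at passage 1, a log2 ratio of 1.83. Passage 1 cell 5 held 71.4% of the passage 1 sum, and without it the log2 ratio was 3.10, whereas without the cycling marker cells of both passages it was 0.57. The latter ratio rests on 6 passage 1 cells, of which cell 5 held 79.6 and no other more than 0.70. Within passage 2, Fzd5 and Fzd8 had the highest Spearman correlation of the 136 pairs among the 17 genes, 0.47 over 45 cells that share a library set and differ in depth.

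Fzd4, which in mouse retinal vessels serves as the receptor for norrin, had the lowest ratio of the receptors that passed. It ranged from 0 through a median of 0 to 71.4 in passage 2 cells and from 0 through 2.48 to 214 in passage 1 cells. It averaged 5.50 ± 14.4 at passage 2 and 33.2 ± 60.4 at passage 1, a log2 ratio of -2.40, and reached 10 in 8 of 45 (17.8%, 8.002 to 32.1) and 9 of 22 cells (40.9%, 20.7 to 63.6). As with Wnt5a, high cells were a smaller share of passage 2 and their highest values were lower than at passage 1. The intervals of the shares overlapped for both genes.

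Fzd1 was the Frizzled with the highest mean per kilobase of exon in both passages, 11.2 normalized counts per kilobase at passage 2 and 19.2 at passage 1. It ranged from 0 through a median of 0.69 to 553 in passage 2 cells and from 0 through 50.2 to 321 in passage 1 cells, and reached 10 in 12 of 45 (26.7%, 14.6 to 41.9) and 14 of 22 cells (63.6%, 40.7 to 82.8). The log2 ratio of its means was -0.76, and -1.15 without passage 2 cell 36, which alone held 553. A smaller share of cells held Fzd1 at passage 2, with intervals that overlapped slightly, but some of those that did were as high as any at passage 1.

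The other receptors differed less than 2-fold. The log2 ratio of Fzd7 was -0.47 (means of 17.3 ± 51.8 at passage 2 and 24.4 ± 45.5 at passage 1), and -1.13 without passage 2 cell 24, while without the cycling marker cells of both passages it was 3.15. Among passage 1 cells, Fzd7 reached 10 in 7 of 16 cycling marker cells and 0 of the 6 other cells. Passage 2 cells went the other way, with 1 of 10 cycling marker cells and 8 of the 35 others at 10 (means of 2.16 and 21.6). The log2 ratio of Fzd2 was -0.38 (14.5 ± 38.9 at passage 2 and 19.2 ± 58.4 at passage 1), and its direction turned without passage 1 cell 15 (0.93) and without the cycling marker cells (1.83). That of Fzd6 was -0.80 (13.2 ± 35.8 and 23.7 ± 51.3 at passage 2 and passage 1), and -1.28 without passage 2 cell 3 and -1.11 without passage 2 cell 16. An antisense gene overlapped 3.15% of the exon length of Fzd6. Fzd3 missed the filter, with a highest value of 4.12 at passage 2 and of 194 at passage 1, where cell 12 held 90.8% of the sum.

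**Figure D3:**
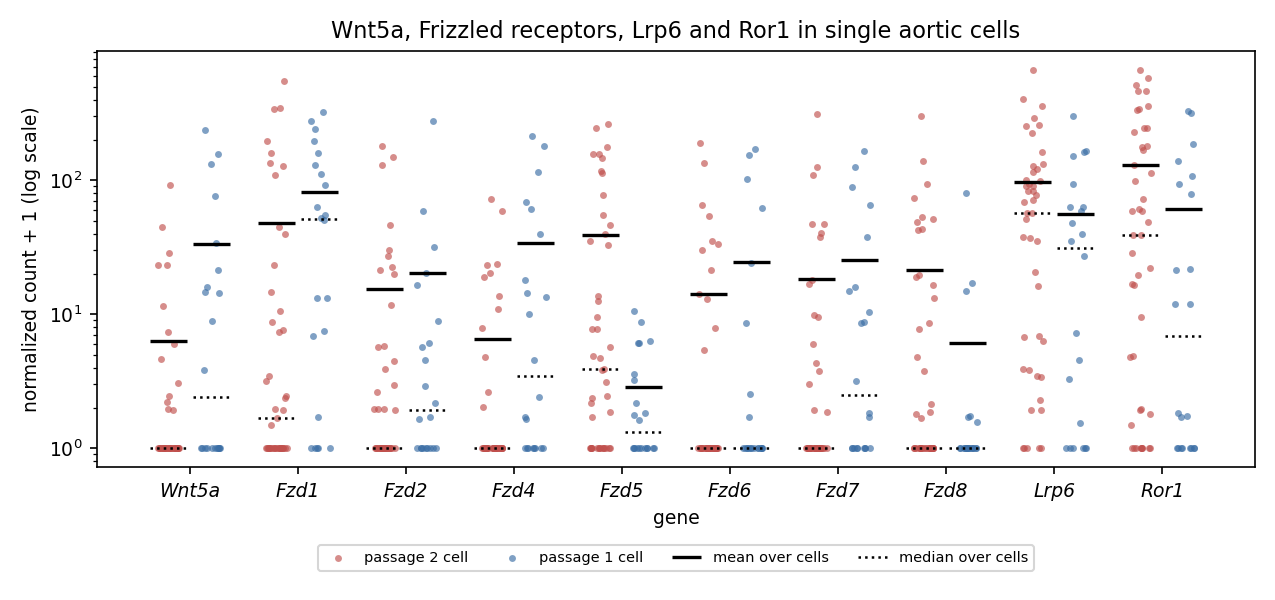
Normalized counts per cell on a log scale (value + 1) for the ligand Wnt5a and for the Frizzleds, Lrp6 and Ror1 that passed the filter. For each gene, passage 2 cells are on the left and passage 1 cells on the right, with solid lines at means and dotted lines at medians. Fzd5 is at 10 or above in 16 passage 2 cells and 0 passage 1 cells, whereas Fzd1 is at 10 or above in 12 of 45 passage 2 cells and 14 of 22 passage 1 cells.

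Cells commonly carried more than 1 receptor. At least 1 Frizzled reached 10 in 36 of 45 passage 2 cells and 19 of 22 passage 1 cells, the median being 2 Frizzleds per cell in both passages and the largest number 4 and 6. Per kilobase, the leading Frizzled among those at 10 was Fzd5 in 10 passage 2 cells, Fzd1 in 9, Fzd6 in 5, Fzd7 in 5, Fzd2 in 4, Fzd8 in 2 and Fzd4 in 1, with none in 9. In passage 1 cells it was Fzd1 in 12, Fzd4 in 4, and Fzd2, Fzd6 and Fzd7 in 1 each, with none in 3. The leading receptor was thus spread over 7 genes at passage 2, while Fzd1 led in most passage 1 cells.

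Both coreceptor-type genes that passed the filter were higher at passage 2. Ror1, a receptor tyrosine kinase-like protein that binds Wnt5a (ENSMUSG00000035305, chromosome 4, 100095791 to 100444765, plus strand), ranged from 0 through a median of 38.3 to 664 in passage 2 cells and from 0 through 5.85 to 329 in passage 1 cells. It averaged 128 ± 179 at passage 2 and 59.6 ± 100.3 at passage 1, a log2 ratio of 1.09, and reached 10 in 29 of 45 (64.4%, 48.8 to 78.1) and 11 of 22 cells (50%, 28.2 to 71.8). The shares of cells had overlapping intervals, and the log2 ratio lay just under 1 without passage 2 cell 25 (0.99), 27 (0.98) or 40 (0.95). The receptor was higher at passage 2 while Wnt5a was lower.

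Within passage 2, Ror1 differed with cycling markers. It reached 10 in 1 of 10 cycling marker cells and 28 of the 35 other cells, with means of 18.7 and 160. In passage 1 cells it reached 10 in 9 of 16 cycling marker cells and 2 of the 6 other cells, with means of 56.4 and 68.0. Wnt5a at passage 1 reached 10 in 7 of 16 cycling marker cells and 2 of the 6 others, with means of 33.2 and 29.6. At passage 2 it was at 0 in all 10 cycling marker cells and reached 10 in 6 of the 35 others. All 6 of those Wnt5a cells also held Ror1 at 10, and 23 further passage 2 cells held Ror1 without Wnt5a at that value. The Spearman correlation of Wnt5a with Ror1 was 0.46 over the 45 passage 2 cells, that of Ror1 with Dkk3 was 0.45 and that of Ror1 with Fzd5 was 0.41.

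Lrp6, the coreceptor of β-catenin signalling, ranged from 0 through a median of 55.9 to 667 in passage 2 cells and from 0 through 30.2 to 299 in passage 1 cells. It averaged 95.3 ± 132 at passage 2 and 55.01 ± 76.9 at passage 1, a log2 ratio of 0.78, and 1.12 without passage 1 cell 18. It reached 10 in 30 of 45 (66.7%, 51.05 to 79.999) and 12 of 22 cells (54.5%, 32.2 to 75.6), so the intervals overlapped. Lrp5, its relative, had a read in 33 of 45 passage 2 cells and 14 of 22 passage 1 cells, with means of 3.53 and 1.41 and maxima of 31.4 and 6.98. Ror2 had a read in 1 of 45 passage 2 cells and 5 of 22 passage 1 cells, with a highest value of 1.76 at passage 2 and 12.99 at passage 1.

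Of the secreted antagonists, Sfrp2 had the highest mean level per kilobase of exon of all 46 genes in both passages. The 10 antagonists took 0.267% of all passage 2 reads (110356 reads) and 0.157% of all passage 1 reads (41380 reads). Sfrp2 supplied 73.3% of these reads at passage 2, with Sfrp1 at 9.39%, Sfrp4 at 7.95%, Frzb at 6.86% and Dkk3 at 2.40%. At passage 1 Frzb supplied 35.4% and Sfrp2 30.9%, with Sfrp1 at 12.7%, Dkk3 at 11.8%, Sfrp4 at 6.498% and Dkk2 at 2.71%. Per cell the 10 genes took 0.00231% to 1.56% of reads at passage 2 (median 0.132%) and 0.00135% to 0.709% at passage 1 (median 0.113%), so typical cells of the passages were closer than the pooled shares.

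Sfrp2, which in mouse is made by many mesenchymal cells and binds Wnts (ENSMUSG00000027996, chromosome 3, 83766321 to 83774316, plus strand), ranged from 4.08 through a median of 270 to 11980.5 in passage 2 cells, and from 0 through 305 to 1578 in passage 1 cells. It averaged 1623 ± 2667 at passage 2 and 411 ± 456 at passage 1, a log2 ratio of 1.98. The upper quartile of passage 2 cells, 2506, lay above the highest passage 1 cell, but the passage 2 median was the lower one, and the log2 ratio of medians was -0.18. Of all pairs of 1 passage 2 and 1 passage 1 cell, Sfrp2 was higher in the passage 2 cell in 57.4%. Exons of Sfrp2 overlapped an antisense gene over 16.1% of their length, so reads of the pair may be mixed.

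Sfrp1 and Sfrp4, of the same family, were also held by part of the cells. Sfrp1 ranged from 0 through a median of 47.1 to 2084 in passage 2 cells and from 0 through 20.5 to 1010.1 in passage 1 cells, and reached 10 in 27 of 45 and 13 of 22 cells. Its means were 237 ± 443 at passage 2 and 173 ± 302 at passage 1, a log2 ratio of 0.46. The share of cells with Sfrp1 was nearly the same, 60.0% (44.3 to 74.3) at passage 2 and 59.1% (36.4 to 79.3) at passage 1.

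Sfrp4 ranged from 0 through a median of 5.24 to 1762 in passage 2 cells and from 0 through 0.72 to 1164 in passage 1 cells. It averaged 174 ± 353 at passage 2 and 82.7 ± 250.3 at passage 1, a log2 ratio of 1.07, and reached 10 in 20 of 45 (44.4%, 29.6 to 60.0) and 7 of 22 cells (31.8%, 13.9 to 54.9). Passage 1 cell 7 held 64.0% of the passage 1 sum, and without it the log2 ratio was 2.44. Leaving out single passage 2 cells (2, 12, 15, 22, 31 or 44) gave log2 ratios of 0.73 to 0.98, and leaving out passage 1 cell 5, 9, 10, 15, 18, 20, 21 or 22 moved it just under 1. Without the cycling marker cells of both passages it was -0.34, but this left 35 passage 2 and 6 passage 1 cells. Passage 1 cell 7, at 1164, was among those 6, whose mean was 246. So neither size nor direction of the Sfrp4 difference held throughout, and both depended on passage 1 cell 7.

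Frzb, also called Sfrp3, had the opposite direction to Sfrp2. It ranged from 0 through a median of 5.79 to 2790 in passage 2 cells and from 0 through 140 to 4193 in passage 1 cells. It averaged 167 ± 436 at passage 2 and 490 ± 1008 at passage 1, a log2 ratio of -1.55, and reached 10 in 19 of 45 (42.2%, 27.7 to 57.8) and 15 of 22 cells (68.2%, 45.1 to 86.1). The highest cell of each passage, passage 2 cell 11 and passage 1 cell 12, was an endothelial marker cell. Without passage 2 cell 11 the log2 ratio was -2.18, and without passage 1 cell 12 it was -0.91.

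Dkk3, a Dkk family member with little effect on Wnt signalling in many assays, was lower at passage 2. It ranged from 0 through a median of 12.9 to 408 in passage 2 cells and from 0 through 109 to 924 in passage 1 cells. It averaged 57.6 ± 86.3 at passage 2 and 162 ± 212 at passage 1, a log2 ratio of -1.48, and reached 10 in 24 of 45 (53.3%, 37.9 to 68.3) and 17 of 22 cells (77.3%, 54.6 to 92.2). Both the share of cells and the level in the middle of the range were lower at passage 2, though the intervals of the shares overlapped. The 3 passage 1 cells that did not meet the smooth muscle count averaged 489, and the 19 that did averaged 110. The size of the ratio therefore owes much to those 3 cells, and a ratio without them was not computed. The median of the 19 was 98.3, still above that of passage 2.

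Dkk2, a ligand of Lrp5 and Lrp6, had the lowest log2 ratio of the 17 genes, -3.29. Its range was from 0 through a median of 0 to 58.1 in passage 2 cells and from 0 through 0.87 to 372 in passage 1 cells, with means of 2.82 ± 8.93 at passage 2 and 36.5 ± 94.2 at passage 1. It reached 10 in 2 of 45 and 4 of 22 cells, so few cells set both means. Without passage 1 cell 1, which held 46.4% of the passage 1 sum, the log2 ratio was -2.49. Dkk1, the best known inhibitor of Lrp6, had a read in 15 of 45 passage 2 cells and 5 of 22 passage 1 cells and did not exceed 5.22 and 1.65, shares no higher than those of the lymphocyte genes Cd3d at passage 2 (33.3%) and Lck at passage 1 (31.8%). Wif1 had a read in 2 of 45 passage 2 cells and 1 of 22 passage 1 cells, with a highest value of 10.7 at passage 2 and 0.53 at passage 1.

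**Figure D4:**
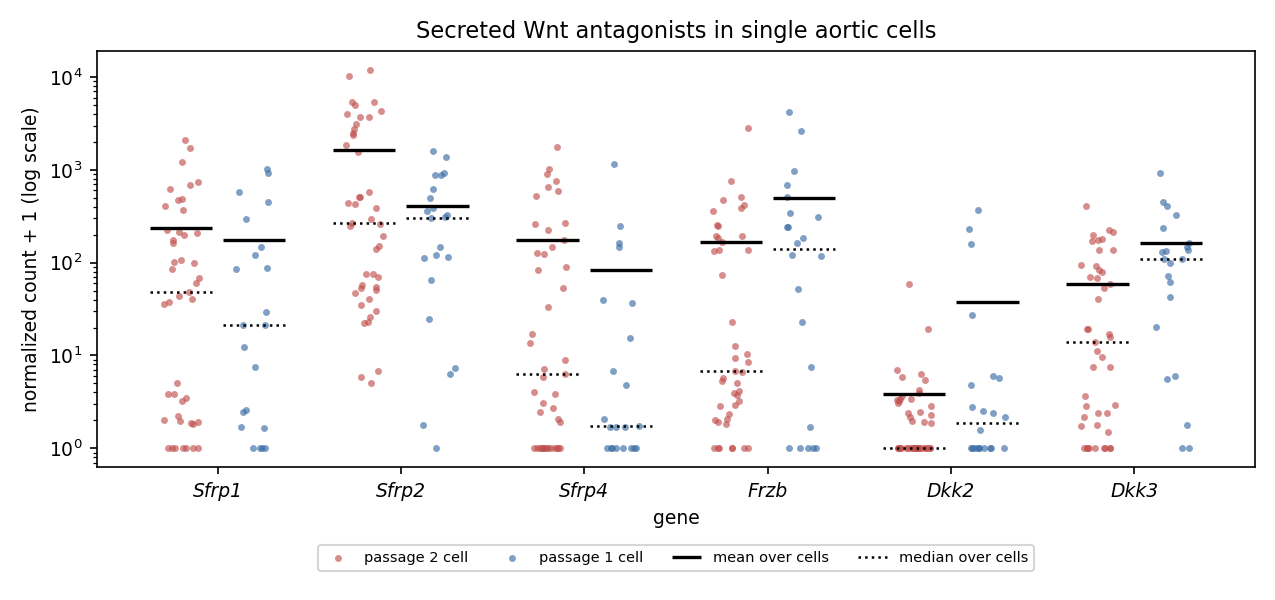
Normalized counts per cell on a log scale (value + 1) for the 6 antagonists that passed the filter. For each gene, passage 2 cells are on the left and passage 1 cells on the right, with solid lines at means and dotted lines at medians. For Sfrp2 the passage 2 mean of 1623 lies above the passage 1 mean of 411 while the medians of 270 and 305 nearly coincide.

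At least 1 antagonist reached 10 in 45 of 45 passage 2 cells and 21 of 22 passage 1 cells. At least 3 did so in 30 of 45 and 17 of 22 cells, and the median was 3 in both passages. Per kilobase, the leading antagonist among those at 10 was Sfrp2 in 28 passage 2 cells, Sfrp1 in 8, Frzb in 4, Dkk3 in 3 and Sfrp4 in 2. In passage 1 cells it was Sfrp2 in 12, Frzb in 6, Dkk3 in 2 and Dkk2 in 1, with none in 1. Sfrp2 thus led in more cells than any other antagonist in both passages. By mean level per kilobase of exon, Sfrp2 stood at 754 normalized counts at passage 2 and 191 at passage 1, Frzb at 51.6 and 151, and Sfrp1 at 54.3 and 39.5, each above every Frizzled.

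Ctnnb1, which encodes β-catenin (ENSMUSG00000006932, chromosome 9, 120929216 to 120960507, plus strand), ranged from 4.76 through a median of 401 to 1851 in passage 2 cells and from 50.4 through 399 to 2538 in passage 1 cells. It averaged 452 ± 427 at passage 2 and 676 ± 659 at passage 1, a log2 ratio of -0.58. The medians of the passages nearly coincided, and the higher passage 1 mean came with a wider upper range. Ctnnb1 reached 10 in 44 of 45 and 22 of 22 cells, and 14.6% of its exon length overlapped the antisense gene Ulk4. Axin1, a scaffold of β-catenin breakdown, had a read in 8 of 45 passage 2 cells and 6 of 22 passage 1 cells, with means of 6.44 ± 26.9 and 5.03 ± 19.2.

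Several of the 17 genes differed between endothelial marker cells and the other cells of their passage. In passage 1, Fzd6 reached 10 in all 5 endothelial marker cells (23.2 to 170) and in 0 of 17 other cells, whose highest value was 7.57. In passage 2 it reached 10 in both endothelial marker cells (53.5 and 64.1) and in 8 of 43 others, whose highest value was 188, so in passage 2 the groups overlapped. Sfrp1 likewise stood at 292 to 1010.1 in the 5 passage 1 endothelial marker cells and at 0 to 145 in the 17 others, and at 471 and 1717 in the 2 passage 2 endothelial marker cells and 0 to 2084 in the 43 others.

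Frzb averaged 1651 in the endothelial marker cells of passage 2 and 97.9 in the others, and 1758 in those of passage 1 and 117 in the others. Ctnnb1 averaged 1041 and 424 in endothelial marker and other cells of passage 2, and 1614 and 400.2 in those of passage 1. Fzd3 reached 10 in 2 of the 5 passage 1 endothelial marker cells and in 0 of the 17 others. Lrp6 ran the other way at passage 1, from 0 to 6.20 in endothelial marker cells and from 0 to 299 in the others. This did not hold at passage 2, where Lrp6 was at 76.1 and 257 in the 2 endothelial marker cells (mean 166). The 43 other passage 2 cells ran from 0 to 667 (mean 91.9). Endothelial marker cells therefore held much of the passage 1 level of Fzd6, Sfrp1 and Frzb and little of its Lrp6.

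These cells were a larger share of passage 1 than of passage 2. Without them the log2 ratio, passage 2 over passage 1, was 2.93 for Fzd6, 2.63 for Sfrp1, -0.26 for Frzb, 0.08 for Ctnnb1, 0.38 for Lrp6, 2.49 for Sfrp2 and -2.60 for Dkk2. The median of the 16 genes that then passed was -0.09, and that of all genes was -0.08. Of the endothelial markers, 9 of 10 had a read in each passage and Cldn5 was at 0 in both, and their summed level ran from 0 to 7012 (median 14.5) at passage 2 and from 1.47 to 5200.1 (median 10.95) at passage 1. Of the fibroblast markers, 9 of 10 had a read in each passage with Tcf21 at 0, and their summed level ran from 193 to 5080 (median 857) and from 216 to 5893 (median 1131). At least 3 fibroblast markers reached 10 in 22 of 45 passage 2 cells and 17 of 22 passage 1 cells. Passage 1 cells 11, 13 and 16, which were endothelial marker cells, were among them. Whether other cell types play a part in the passage differences beyond the values without endothelial marker cells was not tested.

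**Figure D5:**
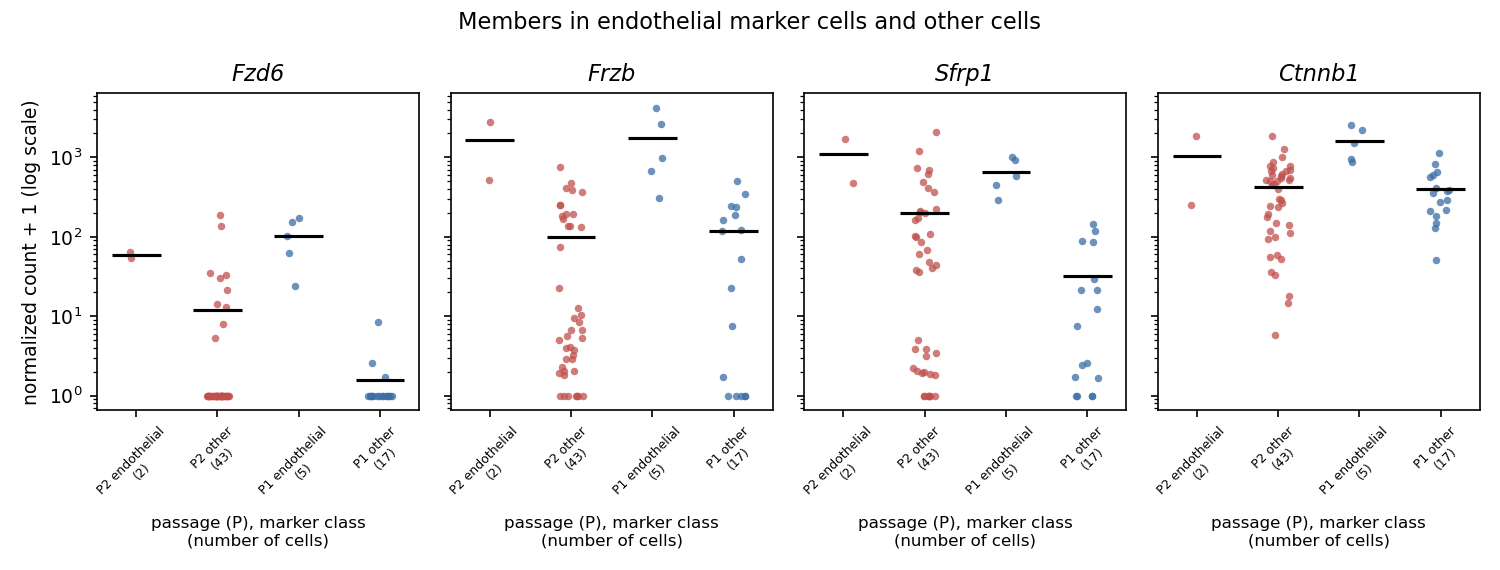
Normalized counts per cell on a log scale (value + 1) of genes that differed between endothelial marker cells and other cells, drawn for each passage with passage 2 on the left. All 5 passage 1 endothelial marker cells lie above the 17 other passage 1 cells for Fzd6 and Sfrp1, and the passage 2 groups overlap.

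Correlations between the 17 genes over cells were mostly weak. The median Spearman correlation over 136 pairs was 0.065 in 45 passage 2 cells and 0.110 in 22 passage 1 cells, all cells of a passage sharing a library set. At passage 1 the highest were Fzd6 with Frzb at 0.69, Sfrp1 with Frzb at 0.66, and Lrp6 with Dkk3 at 0.65, and the lowest was Wnt5a with Ctnnb1 at -0.49. The first 2 of these pairs are genes that were high in the endothelial marker cells. At passage 2 the lowest was Fzd2 with Fzd4 at -0.40.

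Other genes of the pathway were counted from lists of 66 genes, of which 33 passed the filter and 11 had no read in any cell. Of the 33, 21 were higher at passage 2, 9 of them by at least 2-fold, and 12 were lower, 3 of them by at least 2-fold, with a median log2 ratio of 0.35. Over all 8682 genes 45.3% were higher and 54.7% lower, 14.4% at least 2-fold higher and 19.4% at least 2-fold lower, with a median of -0.11. Wls, the carrier that brings Wnts to the cell surface, averaged 637 ± 578 at passage 2 and 343 ± 284 at passage 1, with a log2 ratio of 0.89, and was at 10 or above in 45 of 45 and 21 of 22 cells. Secreted or membrane regulators that passed were Rspo2, an R-spondin that strengthens Wnt signals (34.8 ± 81.1 and 7.27 ± 16.5 at passage 2 and passage 1, log2 ratio 2.11), Znrf3 (0.84) and Lgr4 (0.67). Kremen1, a Dkk receptor, had a log2 ratio of -0.76.

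Within the cell, 8 of 11 genes of β-catenin breakdown passed. Gsk3b, the kinase that marks β-catenin for breakdown, averaged 1054 ± 509 at passage 2 and 506 ± 288 at passage 1, a log2 ratio of 1.06, and Csnk1e had a ratio of 0.39. Nkd2, an inhibitor of Dishevelled, averaged 11.6 ± 51.4 at passage 2 and 61.1 ± 129 at passage 1, a log2 ratio of -2.30, and Ctnnbip1, an inhibitor of β-catenin, had a ratio of -0.77. Of 15 Dishevelled and planar polarity genes, 8 passed, with Prickle2 (2.03) and Daam1 (0.73) at the upper end and Cthrc1 (-1.17) and Vangl1 (-1.07) at the lower end of the log2 ratios.

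Of 12 genes for TCF/LEF factors and their nuclear cofactors, 5 passed. Tcf7l2 averaged 402 ± 263 at passage 2 and 167 ± 108 at passage 1, a log2 ratio of 1.26, and reached 10 in 43 of 45 and 20 of 22 cells. Tle4 had a log2 ratio of 2.37, Tcf7l1 of -0.06 and Tle1 of -0.58, whereas Lef1 did not exceed 5.71 in any passage 2 cell or 3.63 in any passage 1 cell. Of 16 genes listed as β-catenin targets, 8 passed, 6 were higher at passage 2 and 3 of those by at least 2-fold, beside 45.3% and 14.4% of all genes.

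The targets with the highest ratios were Wisp1 (now Ccn4) and Wisp2 (now Ccn5), secreted matricellular proteins. Wisp1 averaged 148 ± 230.1 at passage 2 and 20.4 ± 48.9 at passage 1, a log2 ratio of 2.80, and reached 10 in 25 of 45 and 4 of 22 cells. Wisp2 averaged 1294 ± 802 at passage 2 and 339 ± 493 at passage 1, a log2 ratio of 1.93, and reached 10 in 43 of 45 and 16 of 22 cells. Both were higher at passage 2 in means and in shares of cells, whereas Axin2 had no read in either passage. The lowest log2 ratios among the targets were -0.82 for Tcf4 and -0.34 for Cd44.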

How the data were processed

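RNA of single cells was captured on a Fluidigm C1 system and made into dual-indexed libraries with Nextera XT reagents, per the labels' protocols. BWA, SAMtools, HTSeq, DESeq and GRCm38 are named in the submitters' processing notes, with no versions. The authors deposited signal values, which are counts per gene scaled by a DESeq size factor for each cell. How strand and reads mapping to several places were handled is not given in the sources used here.

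Whole reads were recovered from the step between values of a column (100% of 509576 non-zero values came out whole to within 0.001). No count test was run on them, because each passage counts as 1 sample. Totals were 41340350 reads at passage 2 and 26400274 at passage 1.

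The filter kept genes that in either passage had a mean of 10 or more and reads in 25% or more of the cells, and log2 ratios compared log2(mean + 1). Intervals are exact at 95%, Clopper-Pearson for shares of cells and binomial for read ratios, and the limit for a count of 0 is 3 counts of the total. Symbols, coordinates and exon lengths came from GENCODE M21 on GRCm38, and promoters from RefSeq. No doublet caller was run on 67 cells. All 46 genes are accounted for. Those kept are described in full, and others by their highest cells and numbers of cells with a read. Other pathway genes named are the 2 highest and 2 lowest log2 ratios of each list among those kept, and Wnt4, Lef1, Cd3d and Lck beyond these rules were named after their values were seen. The genes, lists and rules were chosen with earlier results of these data known.

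Alternatives changed the pseudocount, filter, scaling (reads per total, or TMM factors from edgeR 4.0.16 in R 4.3.3), the summary over cells, the depth (thinning to 500000 reads) and the cells included. Ratios were checked on simulated data. The software was matplotlib 3.10.9, scipy 1.17.1, pandas 2.3.3 and numpy 2.4.6 under Python 3.11.15.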

Additional observations from a re-analysis of the deposited data

How the results depend on the processing

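Of the 17 genes kept, 10 had 1 direction of the log2 ratio under all 12 alternatives. The ratio turned for Sfrp2, to -0.18 with medians over cells (where the median of all genes was -0.60), and for Sfrp4, to -0.34 without cycling marker cells. Leaving out cycling marker cells left 35 passage 2 and 6 passage 1 cells, so the ratios without them rest on few passage 1 cells. Among the other genes, the ratio without cycling marker cells was 1.83 for Fzd2, 3.15 for Fzd7 and 0.09 for Fzd6. The ratio without endothelial marker cells was 2.93 for Fzd6 and 0.08 for Ctnnb1. With medians over cells it was 0 for Fzd6 and Fzd8 and 0.0082 for Ctnnb1. The median of the 17 was 0.09 without cycling marker cells. It was 0.46 under the stricter filter (a mean of at least 50 and a read in 50% of cells), which kept 9 of them. Ror1 and Sfrp4 lay just under 2-fold with a pseudocount of 10 (0.99 and 0.99), with reads per total (0.94 and 0.98) and after thinning (0.95 and 0.96). Ror1 was at 0.79 without the cells with the fewest genes, Sfrp4 at 0.80 without endothelial marker cells, and Dkk2 at -0.90 with medians and -0.91 with means of log2 values. The number at least 2-fold higher at passage 2 was 5 of 17, beside 14.4% of all genes. It was 3 of 17 with a pseudocount of 10 (8.56% of all genes), with reads per total (13.2%) and after thinning (12.1%), and 3 of 9 under the stricter filter (12.8%). It was 4 of 17 with medians (7.39%) and 4 of 18 without the cells with the fewest genes (14.7%). It was 6 of 17 with means of log2 values (6.66%) and without cycling marker cells (24.3%), and 5 under the other alternatives. Those 5 were of 31 genes with no filter beyond 1 read (12.6%) and of 16 without endothelial marker cells (16.8%). The number at least 2-fold lower was 5 of 17, beside 19.4% of all genes. Under the stricter filter it was 2 of 9 (16.6% of all genes). With no filter beyond 1 read it was 8 of 31 (14%). Without the 25% of cells with the fewest genes it was 8 of 18 (20.99%). Medians gave 6 of 17 (39.8%), leaving out endothelial marker cells gave 4 of 16 (19.5%), and the other alternatives gave 5. With each cell left out in turn, the median ran from -0.74 to -0.34, the number higher from 4 to 5 and the number lower from 4 to 6. Genes at a value of 10 in at least 50% of cells numbered 6 at passage 2 and 8 at passage 1. Counting any read they numbered 12 and 17, and after thinning 10 and 12. Over all genes, too, fewer had a read per cell at passage 2 (median 7257) than at passage 1 (8477.5). The cause of these differences was not tested. No paired analysis was possible because the labels give cells no replicate numbers and no test was made. Passage 1 cells were read more deeply, and means of genes held by few cells rest on those cells.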
